A study of Mus musculus with 8 samples.

Results

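Glucose uptake, glycolysis and the targets of hypoxia-inducible factor 1 (HIF-1) were followed through 34 genes in mouse dendritic cells. The members were the rows of the deposited count table for 2 glucose transporters, a lactate exporter, 10 enzymes of the first (energy-spending) phase of glycolysis, 6 of its second phase and of lactate formation, 3 regulators of glycolytic flux, 3 genes of oxygen sensing and 9 other HIF-1 target genes. All 34 were found among the 23420 features of the table, and all 34 passed the filter on low counts that left 12442 genes for testing. Cells with a Gata1 knock-out (KO) were set beside wild-type (WT) cells, and both were either stimulated with lipopolysaccharide (LPS), a bacterial cell wall component sensed by toll-like receptor 4, or kept at steady state. Each of the 4 groups (KO LPS, WT LPS, KO steady state and WT steady state) had 2 RNA-seq libraries. The labels call them biological replicates but do not tie them to animals or cultures, so p-values measure the spread between these libraries. The labels do not say which allele or promoter lies behind the knock-out, the strain or age of the mice, how the cells were grown or isolated, or the dose and duration of LPS.

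In glycolysis, glucose enters through facilitative transporters, is trapped by hexokinases, committed by phosphofructokinases, split by aldolases and oxidised to pyruvate, which is reduced to lactate or enters mitochondria. HIF-1 raises transcription of many of these genes; its alpha subunit, Hif1a, is marked for degradation in the presence of oxygen by the EGLN prolyl hydroxylases, of which Egln1 and Egln3 are themselves HIF-1 targets. In dendritic cells, toll-like receptor signals are known to raise glycolysis and Hif1a transcription, also with oxygen present.

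Total counts ran from 8005151 to 15495249 per library. Gata1 had 0 reads in all 4 KO libraries, 0 and 1 in the WT LPS libraries, and 1 and 10 in the WT steady-state libraries, so with LPS its counts do not separate the genotypes at this depth. The members took 1.16% and 1.47% of all counts in KO LPS libraries 1 and 2 and 1.35% and 0.676% in the WT LPS libraries, against 0.515% and 0.467% in KO and 0.451% and 0.474% in WT cells at steady state. WT LPS library 2 thus stood far below its replicate, and results with LPS are given with and without each library where that matters. All 16 dendritic cell markers had reads; their summed level was 6251 and 11436 CPM (reads scaled to library depth with TMM factors) in KO LPS, 21477 and 18081 in WT LPS, 27173 and 26015 in KO steady state, and 35742 and 24245 in WT steady state. Of these, 2 (Ccr7 and Cd86) were called lower in KO than in WT cells with LPS and 0 higher, against 0.49% and 0.281% of all genes. With LPS 8 were called lower in KO cells, against 6.46% of all genes. In WT cells 1 was called higher and 1 lower, against 3% and 3.49%. Between genotypes with LPS all 16 dendritic cell markers were on the lower side in KO, with a median log2 difference of -2.39. On that side 11 had an unadjusted p under 0.05 and 12 no overlap of libraries, against 9.46% and 18.1% of all genes. At steady state 15 of 16 were on that side, with a median of -0.26. Of 14 macrophage markers 1 (Apoe) was called higher in KO than in WT with LPS, with summed levels of 23983 and 18349 CPM in KO LPS, 8488 and 5318 in WT LPS, 29048 and 25422 in KO steady state, and 26736 and 21048 in WT steady state; none was at 0 in all libraries. Between genotypes with LPS 13 of the 14 were on the higher side in KO, against 49.1% of all genes, with a median log2 difference of 1.32. On that side 6 had an unadjusted p under 0.05 and 8 no overlap, against 7.48% and 18% of all genes, and 0.281% were called. With LPS, 2 of the 14 were called higher and 5 lower in KO cells, against 5.3% and 6.46% of all genes. In WT cells 2 were called higher and 6 lower, against 3% and 3.49%. The Ccr7, Cd86 and Apoe calls between genotypes were lost with any 1 library of KO or of unstimulated WT left out, and that of Apoe also without WT LPS replicate 2 (edgeR adjusted p = 0.0553 to 0.185 over the 3 genes). Neutrophil markers summed to 2918 and 3315 CPM in KO LPS and 2743 and 1291 CPM in WT LPS, against 754 and 833 CPM in KO and 829 and 1030.4 CPM in WT steady-state cells. Single neutrophil markers differed more than this sum: at steady state 9 of 11 tested were on the lower side in KO. Their median log2 difference was -2.77, and 0 were called. On that side 8 had an unadjusted p under 0.05 and 8 no overlap, against 1.58% and 23.4% of all genes. In bulk RNA, fewer cells of a type and less RNA per cell cannot be told apart. The part of these marker shifts in the differences below was not tested.

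The promoter windows below belong to 5 of the 7 members that were called after LPS in both genotypes, and are shown because their letters can be set beside those values. Each runs from 250 bases before to 50 bases after a RefSeq transcription start of the gene. All are written 5′ to 3′ on the gene's strand, in GRCm38.p6, the assembly of mm10. For Ankrd37 that start is an internal one: the RefSeq gene reaches to 46000414, so its whole window lies within the gene. Capitals mark the core of the hypoxia response element, ACGTG or GCGTG, on either strand (CACGT and CACGC when read on the other one); overlapping matches are merged into 1 stretch. The windows are those of Ankrd37 (chr8:45999801-46000100, minus strand), Bnip3 (chr7:138909457-138909756, minus strand), Egln3 (chr12:54203825-54204124, minus strand), Hk2 (chr6:82774405-82774704, minus strand) and Ero1l (chr14:45318523-45318822, minus strand; named Ero1a in RefSeq).
Ankrd37: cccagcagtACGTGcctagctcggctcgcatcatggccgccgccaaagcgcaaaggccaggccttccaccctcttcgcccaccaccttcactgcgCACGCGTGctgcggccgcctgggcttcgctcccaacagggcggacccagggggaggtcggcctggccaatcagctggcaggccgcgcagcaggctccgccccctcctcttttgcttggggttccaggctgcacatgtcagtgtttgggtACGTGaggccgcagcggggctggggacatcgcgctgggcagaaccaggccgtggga
Bnip3: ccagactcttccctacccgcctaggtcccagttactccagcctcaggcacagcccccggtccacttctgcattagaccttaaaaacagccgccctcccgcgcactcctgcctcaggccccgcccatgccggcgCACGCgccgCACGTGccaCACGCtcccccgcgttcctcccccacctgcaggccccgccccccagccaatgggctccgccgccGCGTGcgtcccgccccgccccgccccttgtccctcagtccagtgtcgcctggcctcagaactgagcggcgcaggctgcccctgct
Egln3: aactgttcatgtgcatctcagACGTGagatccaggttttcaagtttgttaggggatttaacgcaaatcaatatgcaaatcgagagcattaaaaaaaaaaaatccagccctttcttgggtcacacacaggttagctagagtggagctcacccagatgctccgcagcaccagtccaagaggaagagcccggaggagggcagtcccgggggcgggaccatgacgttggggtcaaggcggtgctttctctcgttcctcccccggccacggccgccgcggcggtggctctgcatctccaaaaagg
Hk2: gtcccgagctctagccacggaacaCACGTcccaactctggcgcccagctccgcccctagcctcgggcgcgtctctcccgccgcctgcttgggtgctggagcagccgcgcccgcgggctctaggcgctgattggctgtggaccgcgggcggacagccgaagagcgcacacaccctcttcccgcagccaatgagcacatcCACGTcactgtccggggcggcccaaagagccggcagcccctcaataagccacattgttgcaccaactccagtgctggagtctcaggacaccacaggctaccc
Ero1l: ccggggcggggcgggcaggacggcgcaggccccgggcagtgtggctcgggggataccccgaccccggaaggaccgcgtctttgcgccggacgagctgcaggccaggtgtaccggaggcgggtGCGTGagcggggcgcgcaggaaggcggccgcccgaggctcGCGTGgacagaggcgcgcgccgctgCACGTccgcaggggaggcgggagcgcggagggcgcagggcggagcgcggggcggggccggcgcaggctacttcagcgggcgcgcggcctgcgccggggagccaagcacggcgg
Ankrd37 held 3 such stretches, Bnip3 4, Ero1l 3, Hk2 2 and Egln3 1. A window was found for 32 of the 34 members, Bnip3l and Ndrg1 being the exceptions. Of 46 member windows 38 (82.61%) held at least 1 stretch, against 61.17% of the 12651 windows of tested genes and 43.77% of all 32851 windows. ACGTG alone was in 27 member windows (58.7%), against 25.36% of those of tested genes, and 29 (63.04%) held at least 2 stretches, against 29.18%. Member windows were also richer in G and C, with a median of 64% against 60.33%, and the part of base composition in the difference was not tested. The windows of Gpi1 and Tpi1 held 0 stretches. Members were listed in part as HIF-1 targets, so a higher share of this core is partly built into the list. A match is a description of the letters and not a site of binding.

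Several genes of the second phase of glycolysis share much of their sequence with other genes, mostly pseudogenes. Of the 50-base stretches in the longest Gapdh transcript, 82.5% also occur in the transcript of another gene, as do 72.2% for Eno1, 68.0% for Pgk1, 62.4% for Bnip3, 41.5% for Pgam1, 36.6% for Higd1a, 34.4% for Pkm, 25.3% for Gpi1 and 23.4% for Bnip3l. Bnip3, Higd1a and Bnip3l are not of this phase, and pseudogenes held fewer of their stretches, at 21.9%, 7.51% and 12.4%. Gapdh, a highly expressed gene in most cells, had 30 and 35 reads in KO LPS, 16 and 35 in WT LPS, 20 and 11 in KO steady state, and 23 and 25 in WT steady state. Eno1 (enolase 1) had 8 to 31 reads, while the row Gm5506, a copy now named Eno1b, had 134 to 375. The labels do not say how reads that match several places were counted, so the levels and folds of these genes are uncertain. On the scale of CPM per kilobase of transcript, Gapdh averaged 1.73 and Eno1 0.595 over the 8 libraries, against 933 for Aldoa, of which 13.5% of stretches are shared. Pfkp overlaps Pitrm1 over 17.1% of its stretches, Ankrd37 overlaps Lrp2bp over 10.5% and Ndrg1 faces an antisense gene over 11.4%. Antisense genes also face Higd1a over 29.0%, Bnip3 over 21.0% and Hif1a over 5.07%. The library kit does not mark strand, so such reads cannot be assigned; Lrp2bp itself had 0 to 4 reads.

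**Figure D1:**
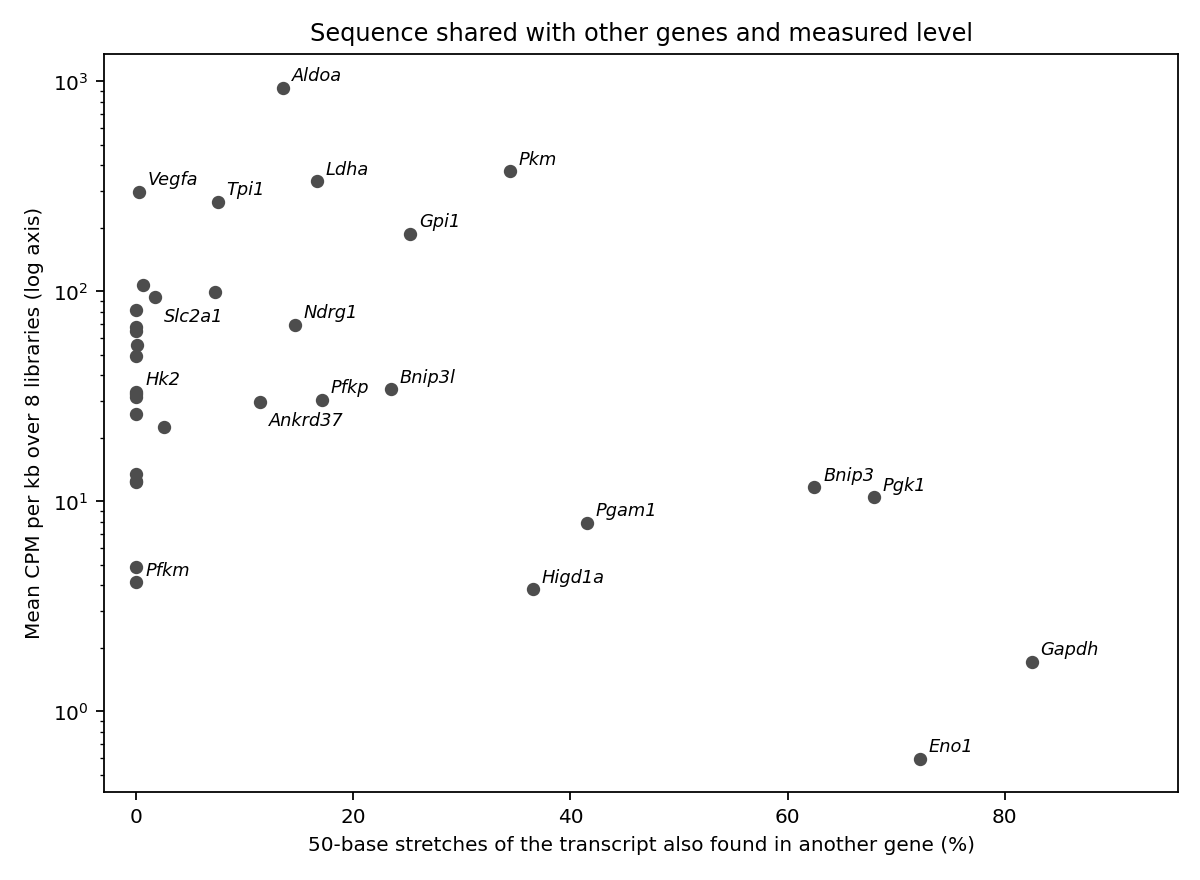
Share of 50-base stretches of each member's longest transcript that also occur in another gene (x axis, percent) against its mean level over 8 libraries (y axis, CPM per kilobase, log axis); each point is 1 of the 34 members. Gapdh and Eno1, at 82.5% and 72.2%, sit at the bottom at 1.73 and 0.595, while Aldoa is highest at 933.

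In CPM per kilobase of the longest transcript, the order of the members was led by Aldoa, which cleaves fructose 1,6-bisphosphate, in all 4 groups. The median transcript was much shorter for some members, such as Gpi1 (581 bases against 2884) and Pkm (725 against 2432). Ranks by that length were not worked out and may differ. It averaged 1761 ± 557 in KO LPS, 1212 ± 1040.4 in WT LPS, 399 ± 48.7 in KO steady state and 360 ± 70.6 in WT steady state (SD, n = 2 each, as for all group means). In KO LPS cells Pkm (pyruvate kinase, 646 ± 288), Ldha (lactate dehydrogenase A, 600 ± 239), Tpi1 (triose-phosphate isomerase, 559 ± 278) and Vegfa (vascular endothelial growth factor A, 507 ± 281) followed and did not differ beyond their spread. Vegfa was second in WT LPS cells at 558 ± 401, and ranked 9 in KO and 6 in WT cells at steady state. Pfkfb3, whose product makes the phosphofructokinase activator fructose 2,6-bisphosphate, held a lower rank with LPS. It ranked 14 in KO LPS and 13 in WT LPS, against 4 in KO and 3 in WT cells at steady state. A rank also falls when other members rise. Pfkfb3 itself was called in neither genotype, and its WT libraries overlapped (147 and 551 CPM with LPS, 505 and 1087 CPM at steady state).

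**Figure D2:**
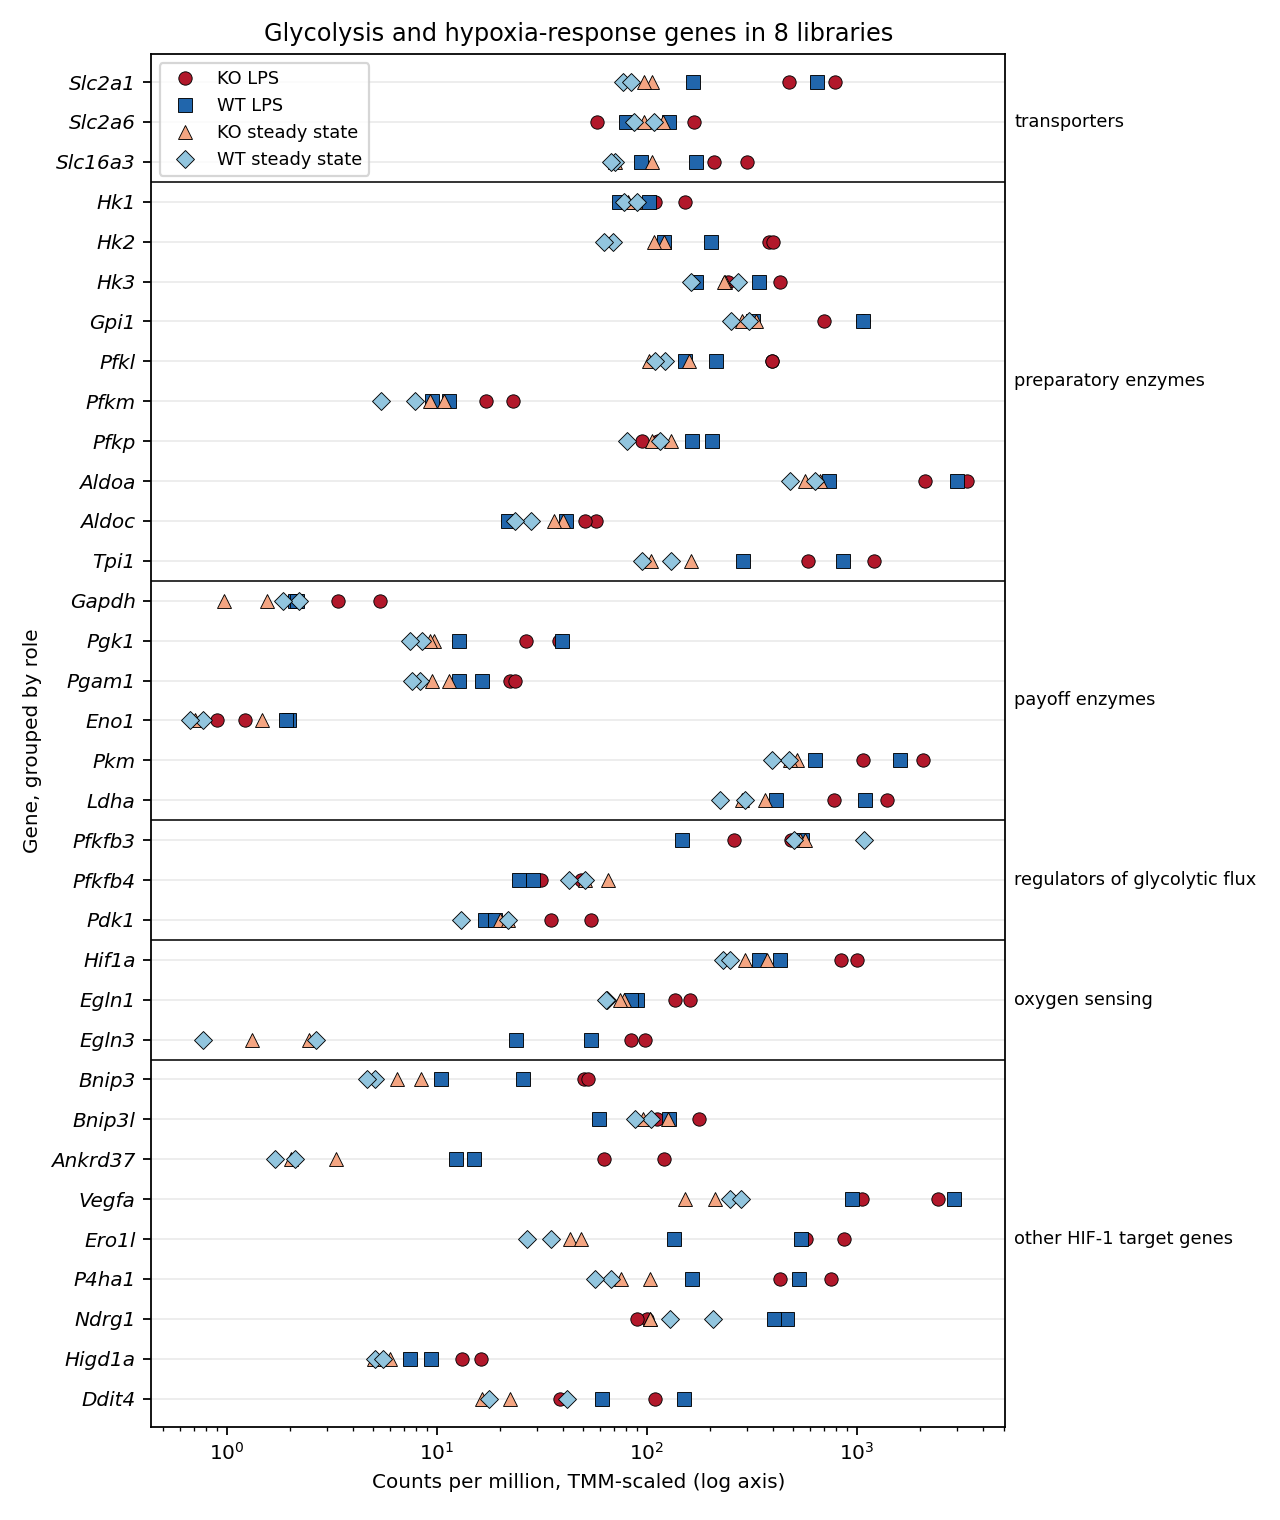
TMM-scaled CPM (log axis) of the 34 members, by role, in each of the 8 libraries (2 points per group). Egln3 and Ankrd37 show the widest separation of LPS from steady-state libraries, with Egln3 at 23.8 to 98.3 CPM with LPS and 0.773 to 2.68 at steady state.

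The response to LPS was asked first within each genotype. Among KO cells 15 of 34 members were higher with LPS and 0 lower at an edgeR quasi-likelihood adjusted p under 0.05 (Benjamini-Hochberg over 12442 genes), against 5.3% of all genes higher and 6.46% lower. Among WT cells 8 of 34 were higher and 0 lower, against 3% and 3.49% of all genes. P4ha1, Egln3, Ero1l, Vegfa, Hk2, Bnip3 and Ankrd37 were called in both genotypes, 8 others in KO alone and Ndrg1 in WT alone; whether the genotypes differ is tested further on. The fold change was above 0 for 29 members in KO, against 48.8% of all genes, and for 31 in WT, against 50.1%. At an unadjusted p under 0.05 there were 24 members in KO, all higher, against 32.8% of all genes in either direction. The 8 calls in WT compare with 6.49% of all genes called in either direction. The median log2 fold change over the 34 members was 1.53 in KO and 1.12 in WT, against -0.02 and 0.00 over all genes. With LPS 27 members lay above steady state in every KO library and 3 below, against 34.4% and 38.2% of all genes. In WT the numbers were 25 and 1, against 27.5% and 29.1%.

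Of the oxygen-sensing genes all 3 were called in KO and 1 in WT. Egln3, a prolyl hydroxylase, had 83.8 and 98.3 CPM in KO LPS and 54.5 and 23.8 CPM in WT LPS, against 2.48 and 1.33 CPM in KO and 0.773 and 2.68 CPM in WT cells at steady state. All LPS libraries were far above all steady-state libraries. The log2 fold change was 5.56 ± 0.68 (SE) in KO (edgeR adjusted p = 0.00581) and 4.45 ± 0.66 in WT (edgeR adjusted p = 0.0124). Hif1a itself had 1000.4 and 846 CPM in KO LPS and 433 and 342 CPM in WT LPS, against 375 and 294 CPM in KO steady state and 229.9 and 248 CPM in WT steady state. It rose in KO (log2 1.47 ± 0.29, edgeR adjusted p = 0.0229), while in WT the log2 fold change of 0.70 ± 0.28 did not pass (edgeR adjusted p = 0.169). Egln1, the main oxygen sensor, had 161 and 137 CPM in KO LPS against 78.3 and 74.5 CPM in KO steady state, and rose there by log2 0.96 ± 0.21 (edgeR adjusted p = 0.0305). Its WT LPS libraries held 89.9 and 84.5 CPM against 64.6 and 64.4 CPM at steady state, with no call (edgeR adjusted p = 0.225). The Egln3 calls were lost without KO steady-state replicate 2 in KO (edgeR adjusted p = 0.0557), and in WT when WT steady-state replicate 1 was left out (edgeR adjusted p = 0.086). Those of Hif1a and Egln1 were lost without any library other than the 2 of WT LPS (edgeR adjusted p = 0.0553 to 0.196 and 0.0683 to 0.225).

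Among the other HIF-1 targets 6 of 9 were called in each genotype. Ankrd37, a small ankyrin repeat gene known as a direct HIF-1 target, had 62.5 and 121 CPM in KO LPS and 15.1 and 12.4 CPM in WT LPS, against 3.33 and 2.04 CPM in KO and 2.12 and 1.71 CPM in WT cells at steady state. It rose by log2 5.08 ± 0.45 in KO (edgeR adjusted p = 0.00297) and 2.83 ± 0.43 in WT (edgeR adjusted p = 0.0138). The KO call held without each library in turn; the WT call was lost without WT steady-state replicate 1 or 2 (edgeR adjusted p = 0.112 and 0.115). Ero1l, an oxidase of the endoplasmic reticulum that helps form disulphide bonds, had 575 and 874 CPM in KO LPS and 540.3 and 135 CPM in WT LPS, against 43.4 and 48.4 CPM in KO and 27.0 and 35.1 CPM in WT cells at steady state. Its log2 fold changes were 3.98 ± 0.66 in KO (edgeR adjusted p = 0.0145) and 3.44 ± 0.64 in WT (edgeR adjusted p = 0.0257). Vegfa, an angiogenic growth factor, stood at 1064 and 2433 CPM in KO LPS and 2906 and 948 CPM in WT LPS, against 212 and 152 CPM in KO and 249.6 and 282 CPM in WT cells at steady state. The LPS libraries overlapped between genotypes, and the rise was log2 3.26 ± 0.65 in KO (edgeR adjusted p = 0.0236) and 2.86 ± 0.63 in WT (edgeR adjusted p = 0.0437). The KO calls were lost without KO LPS replicate 2 or either KO steady-state library for Ero1l, and for Vegfa also with 1 WT steady-state library removed (edgeR adjusted p = 0.0693 to 0.105 and 0.0559 to 0.167). The WT calls were lost without any steady-state library for Ero1l, and for Vegfa also without WT LPS replicate 1 (edgeR adjusted p = 0.0524 to 0.207 and 0.0777 to 0.262).

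P4ha1, a subunit of collagen prolyl 4-hydroxylase, rose by log2 2.73 ± 0.58 in KO (edgeR adjusted p = 0.0286) and 2.48 ± 0.57 in WT (edgeR adjusted p = 0.0485). Its values were 430.0 and 758 CPM in KO LPS and 529 and 165 CPM in WT LPS, against 104 and 75.4 CPM in KO and 68.0 and 56.7 CPM in WT cells at steady state. Bnip3, a mitophagy receptor whose level is uncertain as given above, rose by log2 2.78 ± 0.44 in KO (edgeR adjusted p = 0.013) and 1.88 ± 0.44 in WT (edgeR adjusted p = 0.0488). Its related receptor Bnip3l, in contrast, ranged from 59.5 to 178 CPM over all 8 libraries and was called in neither. Higd1a, a small protein of the inner mitochondrial membrane, rose in KO to 13.2 and 16.2 CPM, against 5.04 and 6.02 CPM at steady state (log2 1.41 ± 0.33, edgeR adjusted p = 0.0367). Ddit4, an inhibitor of the growth regulator mTORC1, had 38.5 and 109.6 CPM in KO LPS and 150.0 and 61.5 CPM in WT LPS, against 16.5 and 22.4 CPM in KO and 17.8 and 41.9 CPM in WT steady-state cells. All LPS libraries but 1 lay above every steady-state library, yet neither fold was called (log2 1.93 ± 0.66 in KO and 1.82 ± 0.66 in WT, edgeR adjusted p = 0.0978 and 0.135). In KO the P4ha1 call needed KO LPS replicate 2 and every steady-state library, that of Bnip3 needed KO LPS replicate 2 and both KO steady-state libraries, and that of Higd1a needed every library other than the 2 of WT LPS (without any of these, edgeR adjusted p = 0.0642 to 0.185, 0.0658 to 0.102 and 0.0609 to 0.245). In WT the calls of P4ha1 and Bnip3 were lost without any library but WT LPS replicate 2 (edgeR adjusted p = 0.0589 to 0.253 and 0.0742 to 0.241).

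Ndrg1, a stress-responsive gene also induced by hypoxia and iron depletion, was called in WT alone. It had 101 and 90.3 CPM in KO LPS and 467 and 404 CPM in WT LPS, against 104 and 103 CPM in KO and 129 and 208 CPM in WT cells at steady state. The WT LPS libraries stood above all others, and the KO LPS libraries lay just below those of KO steady state. The rise in WT was log2 1.37 ± 0.29 (edgeR adjusted p = 0.039), and it was kept with 1 library left out solely without WT LPS replicate 2 (edgeR adjusted p = 0.0197; 0.0547 to 0.231 without any of the other 7).

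Of the 3 transporters, 2 were called in KO and 0 in WT. Slc2a1, the transporter GLUT1, had 474 and 789 CPM in KO LPS and 649 and 166 CPM in WT LPS, against 106 and 96.8 CPM in KO and 77.6 and 83.9 CPM in WT cells at steady state. It rose in KO (log2 2.64 ± 0.61, edgeR adjusted p = 0.0371), and in WT the log2 fold change of 2.33 ± 0.61 did not pass (edgeR adjusted p = 0.065). Slc16a3, the lactate exporter MCT4, had 302 and 209 CPM in KO LPS and 93.8 and 173 CPM in WT LPS, against 106 and 70.6 CPM in KO and 71.1 and 67.4 CPM in WT steady-state cells, and rose in KO by log2 1.53 ± 0.38 (edgeR adjusted p = 0.0425). Slc2a6, the transporter GLUT6, was not called: it ranged from 58.3 to 167 CPM with LPS and from 87.1 to 120.2 CPM at steady state, and the lowest and the highest value were both KO LPS libraries. The KO calls of Slc2a1 and Slc16a3 were lost without any library other than the 2 of WT LPS (edgeR adjusted p = 0.0563 to 0.201 and 0.0886 to 0.259).

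Of the 10 enzymes of the first phase, Hk2, Pfkl and Tpi1 were called in KO and Hk2 in WT. Hk2, the inducible hexokinase, had 384 and 400.2 CPM in KO LPS and 203 and 122 CPM in WT LPS, against 122 and 108 CPM in KO and 69.2 and 62.4 CPM in WT cells at steady state. Its log2 fold change was 1.77 ± 0.30 in KO (edgeR adjusted p = 0.015) and 1.30 ± 0.30 in WT (edgeR adjusted p = 0.0473). Pfkl, the liver-type phosphofructokinase, had 396 and 394 CPM in KO LPS and 214 and 152 CPM in WT LPS, against 159.8 and 103 CPM in KO and 122 and 109 CPM in WT steady-state cells (log2 1.59 ± 0.31 in KO, edgeR adjusted p = 0.0229). Tpi1 had 583 and 1214 CPM in KO LPS and 860.0 and 289 CPM in WT LPS, against 162 and 105 CPM in KO and 130.2 and 94.8 CPM in WT steady-state cells. It rose in KO (log2 2.75 ± 0.61, edgeR adjusted p = 0.0328), and its WT log2 fold change of 2.35 ± 0.60 did not pass (edgeR adjusted p = 0.0627). The KO calls were lost without KO LPS replicate 2 or either KO steady-state library for Hk2 (edgeR adjusted p = 0.0755 to 0.136), also without either WT steady-state library for Tpi1 (0.0689 to 0.201), and without any library other than the 2 of WT LPS for Pfkl (0.0533 to 0.179). The WT call of Hk2 was lost without any library but WT LPS replicate 2 (0.065 to 0.24).

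Aldoa had 2117 and 3338 CPM in KO LPS and 3018 and 738 CPM in WT LPS, against 671 and 564 CPM in KO and 635 and 480.2 CPM in WT cells at steady state. Every LPS library was above every steady-state library, but with this spread neither fold was called (log2 2.14 ± 0.64 in KO and 1.75 ± 0.63 in WT, edgeR adjusted p = 0.0703 and 0.137). Gpi1, which converts glucose 6-phosphate to fructose 6-phosphate, had 698 and 1067 CPM in KO LPS and 1076 and 319.7 CPM in WT LPS, against 332 and 285 CPM in KO and 308 and 253 CPM in WT steady-state cells. It gave log2 1.52 ± 0.55 in KO and 1.31 ± 0.55 in WT, likewise not called (edgeR adjusted p = 0.109 and 0.178). The WT values rested on 1 library: without WT LPS replicates 1 and 2 the log2 fold change was 0.20 and 1.94 for Gpi1 (edgeR adjusted p = 0.823 and 0.0119) and 0.41 and 2.43 for Aldoa. Both genes were called without replicate 2. The ubiquitous hexokinase Hk1 ranged from 74.2 to 153 CPM and the leukocyte-rich Hk3 from 162 to 433 CPM over all libraries, with no call. Pfkm, the muscle-type phosphofructokinase, was low throughout, at 5.43 to 23.2 CPM, and Aldoc, the brain-type aldolase, at 22.0 to 57.5 CPM.

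Of the second phase, Pgam1 (phosphoglycerate mutase) was called in KO, at 22.5 and 23.7 CPM with LPS against 11.4 and 9.47 CPM at steady state (log2 1.15 ± 0.28, edgeR adjusted p = 0.0429; 0.0814 to 0.276 without any 1 library other than the 2 of WT LPS). Pkm had 1075 and 2066 CPM in KO LPS and 1613 and 633 CPM in WT LPS, against 522 and 479.7 CPM in KO and 475 and 395 CPM in WT steady-state cells. Ldha had 782 and 1395 CPM in KO LPS and 1094 and 411 CPM in WT LPS, against 364 and 284 CPM in KO and 295 and 224 CPM in WT steady-state cells. Both were above steady state in every LPS library of either genotype. Neither was called, with log2 fold changes of 1.65 ± 0.52 for Pkm and 1.75 ± 0.52 for Ldha in KO (edgeR adjusted p = 0.0777 and 0.0695) and of 1.37 ± 0.51 and 1.54 ± 0.52 in WT (edgeR adjusted p = 0.146 and 0.118). Pgk1, phosphoglycerate kinase, had log2 fold changes of 1.77 ± 0.51 in KO and 1.70 ± 0.51 in WT (edgeR adjusted p = 0.0646 and 0.0918). It had 26.5 and 38.4 CPM in KO LPS and 39.7 and 12.8 CPM in WT LPS, against 9.69 and 9.3 CPM in KO and 8.5 and 7.51 CPM in WT steady-state cells. Without WT LPS replicates 1 and 2 the WT log2 fold change was 0.69 and 2.31 for Pgk1 (edgeR adjusted p = 0.289 and 0.00628), 0.55 and 1.89 for Pkm and 0.67 and 2.07 for Ldha. All 3 were called without replicate 2. In KO all 3 were called without either WT LPS library and by DESeq2.

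None of the 3 flux regulators was called. Pfkfb3 had 259.8 and 488 CPM in KO LPS and 147 and 551 CPM in WT LPS, against 534 and 567 CPM in KO and 505 and 1087 CPM in WT steady-state cells. Pfkfb4, a related enzyme, had 48.9 and 31.5 CPM in KO LPS and 24.6 and 28.8 CPM in WT LPS, against 65.5 and 51.0 CPM in KO and 50.7 and 42.6 CPM in WT steady-state cells. LPS libraries were the lower ones for Pfkfb4 in both genotypes and for Pfkfb3 in KO, with no call; the Pfkfb4 fold in WT was log2 -0.80 ± 0.29 (edgeR adjusted p = 0.134). Pdk1, which inhibits pyruvate dehydrogenase, had 54.6 and 35.2 CPM in KO LPS and 17.1 and 18.9 CPM in WT LPS, against 20.0 and 21.8 CPM in KO and 21.8 and 13.0 CPM in WT steady-state cells. The KO LPS libraries were the highest of the 8, with log2 1.10 ± 0.34 over KO steady state (edgeR adjusted p = 0.0737).

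**Figure D3:**
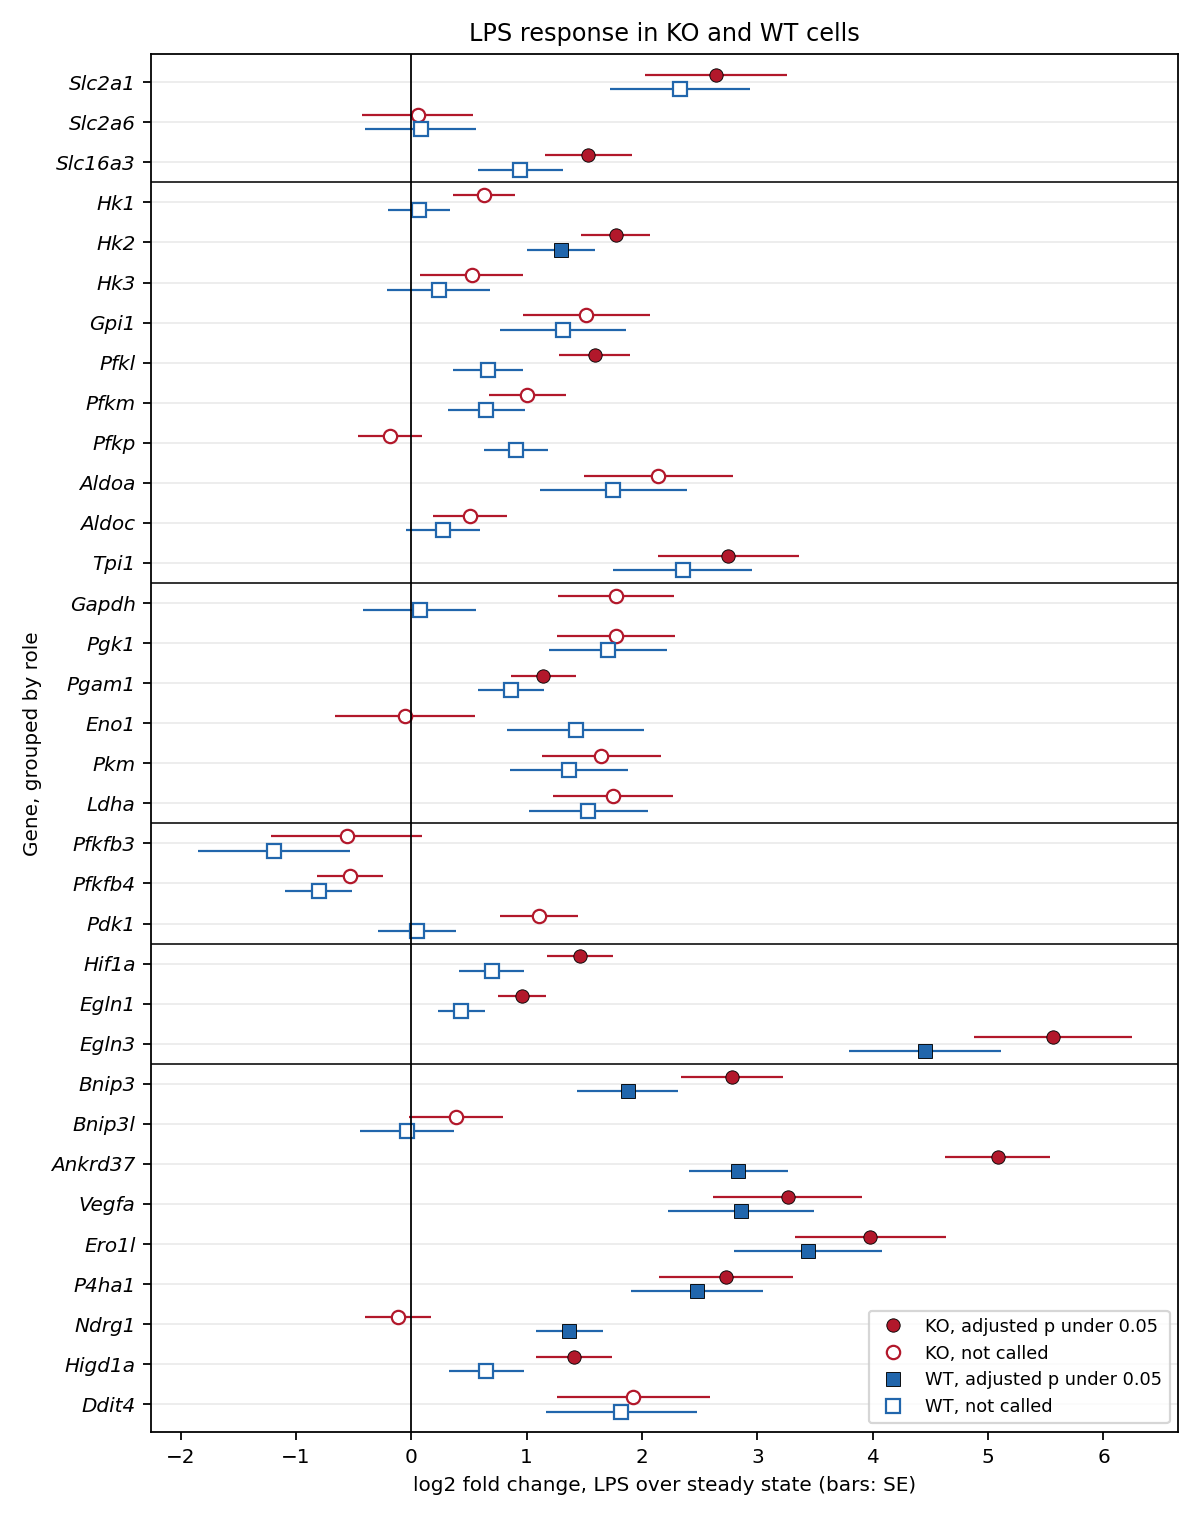
Log2 fold change of LPS over steady state (x axis, bars are SE from the fit to all 8 libraries) for the 34 members, in KO (circles) and WT (squares) cells; filled symbols passed an adjusted p under 0.05. The 15 filled KO and 8 filled WT symbols all lie right of 0, with Egln3 at 5.56 and 4.45.

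These counts depended on single libraries. The KO count of 15 was 8 without KO LPS replicate 1 and 2 without KO LPS replicate 2, and 2 and 1 without KO steady-state replicates 1 and 2. It was 5 without either WT steady-state library and 23 without either WT LPS library, and DESeq2 called 24. Calls over all genes moved with it, from the 1463 of all libraries. They were 884 and 249 without KO LPS replicates 1 and 2, and 144 and 143 without KO steady-state replicates 1 and 2. They were 611 and 634 without WT steady-state replicates 1 and 2, 3345 and 3328 without WT LPS replicates 1 and 2, and 2786 with DESeq2. The 8 members gained without either WT LPS library were Gpi1, Aldoa, Gapdh, Pgk1, Pkm, Ldha, Pdk1 and Ddit4. The WT count of 8 was 3 without WT LPS replicate 1 and 19 without replicate 2, and 0 and 1 without WT steady-state replicates 1 and 2. It was 4 without either KO LPS library and 2 without either KO steady-state library, and DESeq2 called 15. Over all genes the calls were 807 with all libraries, 682 and 3629 without WT LPS replicates 1 and 2, and 70 and 119 without WT steady-state replicates 1 and 2. They were 725 and 743 without KO LPS replicates 1 and 2, 370 and 378 without KO steady-state replicates 1 and 2, and 1944 with DESeq2. Slc2a1, Gpi1, Pfkp, Aldoa, Tpi1, Pgk1, Pgam1, Pkm, Ldha and Ddit4, all higher with LPS, were among the members gained without WT LPS replicate 2. Another member, not named here, was called lower with LPS in that fit. A fit to the 4 WT libraries alone called 0 members and 229 genes. With all 8 libraries 21 members were higher and 1 lower before adjustment at p under 0.05, against 13.2% and 13.5% of all genes. None of the 23 called folds changed sign without any 1 library.

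Libraries of 1 group differed most in WT LPS. WT LPS replicate 1 was above replicate 2 for 27 of 34 members, against 48.4% of all genes, by a median of 1.53 times. There 15 members differed more than 2-fold, against 31.8% of all genes in that group and 1 of 34 members between the KO steady-state libraries. KO LPS replicate 2 was above replicate 1 for 22 members, against 47.1% of all genes, by a median of 1.29 times, but 12 members went the other way and 4 differed more than 2-fold, against 19.9% of all genes. At steady state replicate 1 was the higher one for 28 members in KO and 24 in WT, by medians of 1.196 and 1.143 times. Of the WT members 3 differed more than 2-fold there. Slc2a1 and Aldoa, at 649 against 166 CPM and 3018 against 738 CPM in WT LPS replicates 1 and 2, are examples. The 17 genes of the unfolded-protein and amino acid stress list took the same order, with summed levels of 3574 and 10408 CPM in KO LPS libraries 1 and 2 and 9126 and 2598 CPM in the WT LPS libraries, against 2738 and 2546 CPM in KO and 2609 and 2124 CPM in WT steady-state cells. Heat shock and dissociation genes summed to 306 and 574 CPM in KO LPS and 1727 and 485 CPM in WT LPS, against 321 and 308 CPM in KO and 426 and 363 CPM in WT steady-state cells. The part of these stress genes in the members' spread was not tested.

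The genotypes were then compared under LPS. Of the 34 members 1, Ankrd37, was higher in KO and 1, Ndrg1, lower, against 0.281% of all genes higher and 0.49% lower (0.772% in either direction). Ankrd37 (mm10 chromosome 8, 45996908 to 46000414) averaged 91.9 ± 41.7 CPM in KO LPS and 13.7 ± 1.91 CPM in WT LPS (log2 2.75 ± 0.40, edgeR adjusted p = 0.0411). Ndrg1 (chromosome 15, 66929318 to 66969641) averaged 95.4 ± 7.22 CPM in KO LPS and 436 ± 44.8 CPM in WT LPS (log2 -2.19 ± 0.30, edgeR adjusted p = 0.0366). Both HIF-1 targets thus differed between genotypes in opposite directions.

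With Ankrd37 and Ndrg1 included, 12 members were higher and 2 lower at an unadjusted p under 0.05, against 7.48% and 9.46% of all genes. Of the 34 differences 29 were above 0, against 49.1%. The median log2 difference was 0.64 against -0.01 over all genes, and 1.26 and 0.46 without WT LPS replicates 1 and 2. In 17 members both KO libraries were above both WT libraries and in 3 below, against 18% and 18.1% of all genes. Hif1a, Hk2, Pfkl, Bnip3, Pdk1 and Egln1 were among these 17 but were not called. Hif1a was higher in KO LPS by log2 1.25 ± 0.28 (edgeR adjusted p = 0.091) and Hk2 by 1.28 ± 0.30 (edgeR adjusted p = 0.0942). Pfkl differed by log2 1.11 ± 0.31 (edgeR adjusted p = 0.132), Bnip3 by 1.51 ± 0.42 (0.133), Pdk1 by 1.32 ± 0.34 (0.113) and Egln1 by 0.77 ± 0.21 (0.125). DESeq2 called all 6 of them, and edgeR called Hif1a, Hk2 and Bnip3 without WT LPS replicate 1. Pfkp, the platelet-type phosphofructokinase, had 113 and 94.9 CPM in KO LPS and 206 and 164 CPM in WT LPS; both KO libraries were below both WT libraries (log2 -0.83 ± 0.28, edgeR adjusted p = 0.195). The glycolytic enzymes with the most RNA overlapped between genotypes, among them Aldoa, Pkm, Ldha, Tpi1 and Gpi1.

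Over all genes 96 were called in this comparison, against 1039 with DESeq2, 826 and 206 without WT LPS replicates 1 and 2, 0 in a fit to the 4 LPS libraries alone and 1 to 9 without any other library. The members' count of 2 became 8 with DESeq2, 9 and 1 without WT LPS replicates 1 and 2, 0 in the fit to the LPS libraries alone, and 0 without either KO LPS library or without any 1 of the 4 steady-state libraries, which enter this comparison through the shared spread. Ankrd37 lost its call without each library except WT LPS replicate 1 (edgeR adjusted p = 0.0557 to 0.152), and Ndrg1 without each library except the 2 of WT LPS (edgeR adjusted p = 0.067 to 0.164), with log2 differences of 2.17 to 3.15 for Ankrd37 and -2.29 to -2.09 for Ndrg1.

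**Figure D4:**
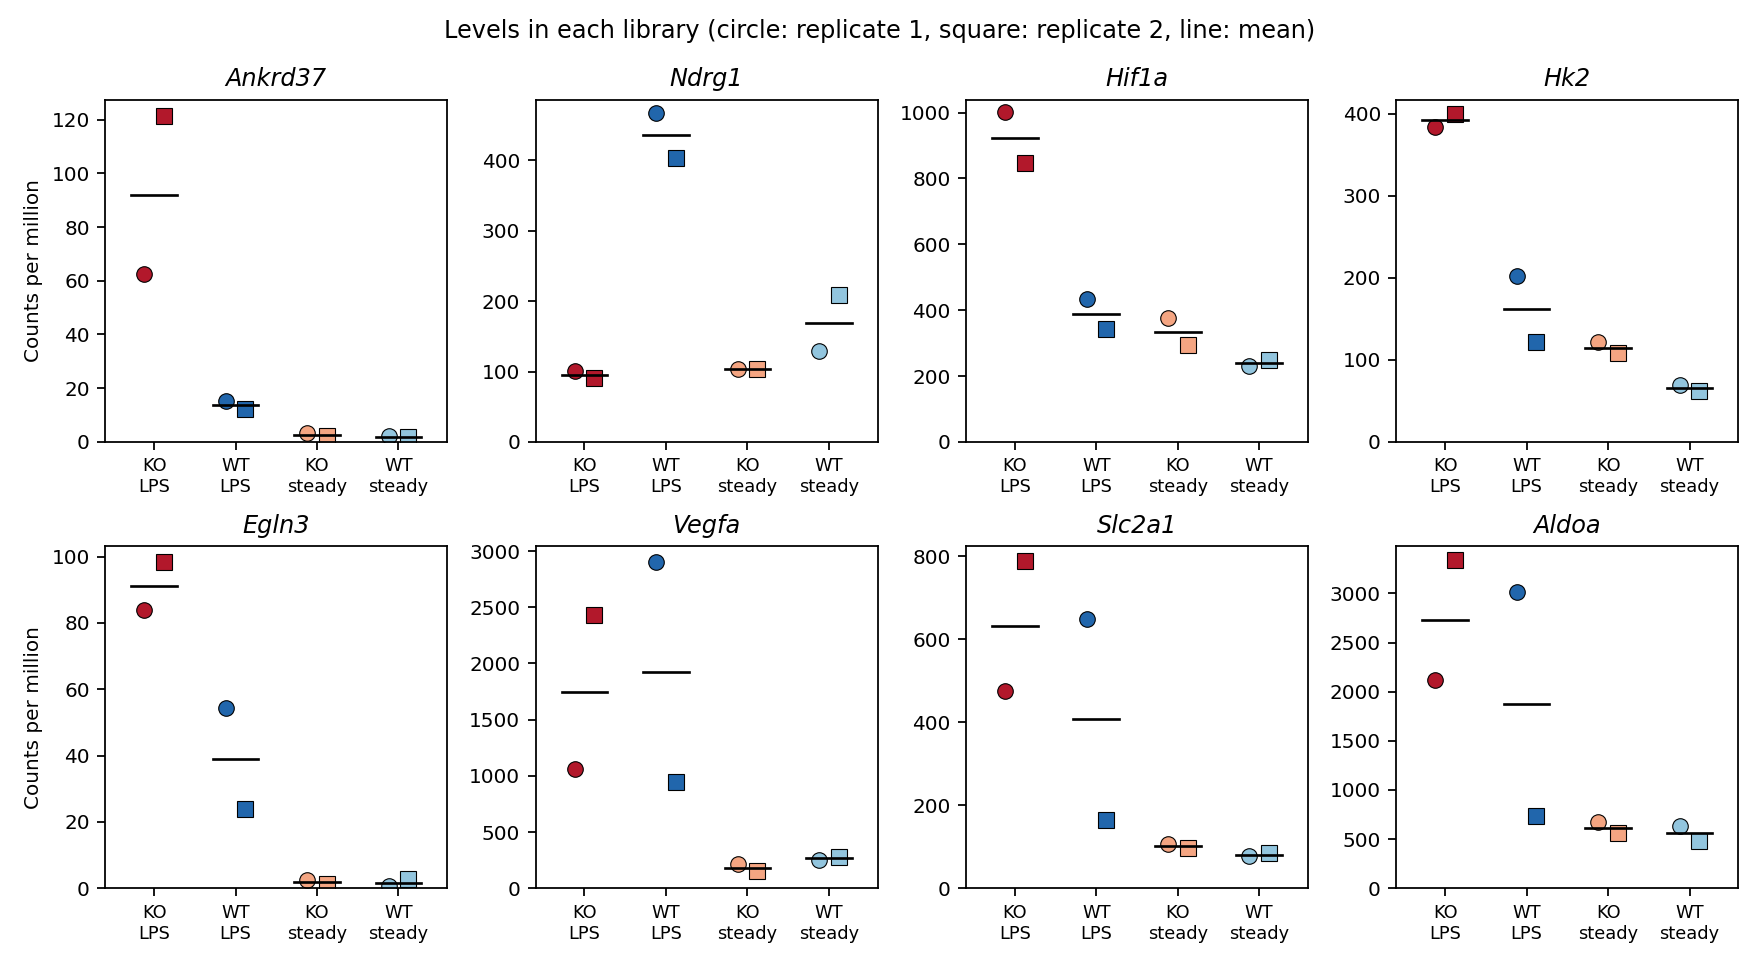
CPM in each library (circle, replicate 1; square, replicate 2; line, mean) for 8 members in KO LPS, WT LPS, KO steady state and WT steady state; each panel has its own axis from 0. Ankrd37 is highest in both KO LPS libraries (62.5 and 121), Ndrg1 in both WT LPS libraries (467 and 404), and Slc2a1, Vegfa and Aldoa spread widely between the LPS libraries of a group.

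At steady state 0 members were called between KO and WT cells by edgeR and by DESeq2, beside 0% of all genes by edgeR and 27 genes by DESeq2. At an unadjusted p under 0.05, 1 member was higher and 1 lower, against 1.05% and 1.58% of all genes. Those were Hk2, at 122 and 108 CPM in KO and 69.2 and 62.4 CPM in WT (log2 0.80 ± 0.29), and Ndrg1, at 104 and 103 CPM in KO and 129 and 208 CPM in WT (log2 -0.70 ± 0.29), each with an edgeR adjusted p of 1. In 13 members both KO libraries were above both WT libraries and in 3 below, against 22.1% and 23.4% of all genes. The difference was above 0 for 29 members, against 49.1% of all genes, and its median was log2 0.25, against -0.01 over all genes. This median was 0.11 and 0.39 without KO steady-state replicates 1 and 2, and 0.37 and 0.12 without WT steady-state replicates 1 and 2. Averaged over both treatments 0 of 34 members were called, against 0.0884% of all genes higher and 0.121% lower (0.209% in all); 11 were higher and 1 lower at an unadjusted p under 0.05, against 6.19% and 8.41%. The nearest were Ndrg1 (log2 -1.45 ± 0.21, edgeR adjusted p = 0.0534), Ankrd37 (log2 1.62 ± 0.29, edgeR adjusted p = 0.085) and Hk2 (log2 1.04 ± 0.21, edgeR adjusted p = 0.0955). DESeq2 called 6 members and 715 genes, and edgeR called 8 members and 632 genes without WT LPS replicate 1 and 1 member and 78 genes without replicate 2. This comparison reuses the libraries of the 2 before it.

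The difference of the 2 LPS responses (KO minus WT) was called for 0 of 34 members by edgeR and by DESeq2, beside 0% of all genes by edgeR and 110 genes by DESeq2. At an unadjusted p under 0.05 there were 2 higher and 2 lower, against 2.76% and 3.64% of all genes (6.41% in all), and 30 differences were above 0, against 49.5%. Ankrd37 had a difference of log2 2.25 ± 0.59 (edgeR adjusted p = 0.57) and Ndrg1 of -1.49 ± 0.41 (edgeR adjusted p = 0.588). Gapdh, with few reads, had 1.70 ± 0.70 (edgeR adjusted p = 0.762) and Pfkp -1.09 ± 0.39 (edgeR adjusted p = 0.681). The members called with LPS in 1 genotype alone are therefore not shown to respond differently in the other. The median difference over members was 0.39, or 0.96 and 0.043 without WT LPS replicates 1 and 2.

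Isoenzyme use at the steps of hexokinase and phosphofructokinase was described as shares of CPM per kilobase of the longest transcript, with no test. Hk2 made up 38.5% and 31.2% of hexokinase RNA in KO LPS (34.8% ± 5.13), 23.0% and 22.2% in WT LPS (22.6% ± 0.526), 19.0% and 17.6% in KO steady state (18.3% ± 0.996), and 10.9% and 13.7% in WT steady state (12.3% ± 1.97). The ranges of this share were separate in the 4 groups by this length. By the median transcript length the Hk2 shares were 28.5% and 30.0% in KO LPS, 23.0% and 15.6% in WT LPS, 15.8% and 15.005% in KO steady state, and 9.84% and 9.59% in WT steady state. WT LPS and KO steady state then overlapped. Pfkl made up 75.0% and 78.5% of phosphofructokinase RNA in KO LPS (76.8% ± 2.51), against 51.8% and 48.8% in WT LPS (50.3% ± 2.08), 55.2% and 48.4% in KO steady state (51.8% ± 4.76), and 51.7% and 57.8% in WT steady state (54.7% ± 4.30). The KO LPS libraries thus stood apart, with Pfkp at 19.3% and 17.0% there and at 44.6% and 47.3% in WT LPS. Hk3 had the largest hexokinase share in every library by the longest transcript, from 41.8% to 73.3%. With the median transcript length Hk1 instead had the largest share, so the order between hexokinases depends on the length chosen.

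**Figure D5:**
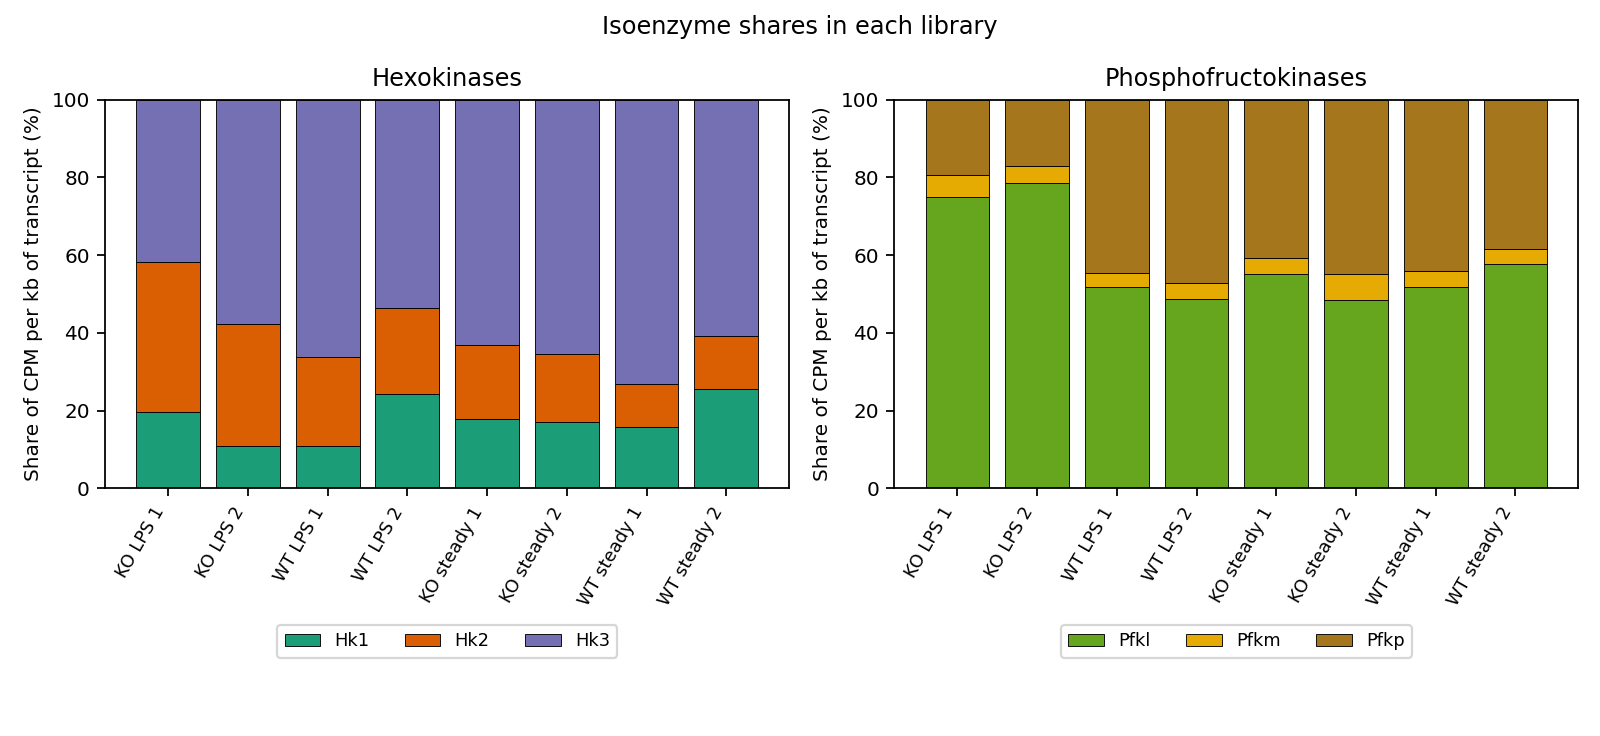
Share of each hexokinase (left) and phosphofructokinase (right) in the CPM per kilobase of its step (y axis, percent, stacked bars), in each of 8 libraries. Hk2 is 31.2% to 38.5% in the KO LPS libraries and 10.9% to 13.7% in the WT steady-state libraries, and Pfkl is 75.0% and 78.5% in KO LPS against 48.4% to 57.8% elsewhere.

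In neighbouring pathways, of 17 tested further glycolysis genes and isoenzymes, 1 was higher (Pgm2) and 1 lower (Eno3) with LPS in KO, and 0 and 1 (Eno3) in WT. For this list and those that follow, the shares over all genes were 5.3% higher and 6.46% lower in KO, and 3% and 3.49% in WT. Between genotypes with LPS they were 0.281% and 0.49%. Single calls in lists this short are not read as results about a pathway. Eno3, muscle enolase, had 11.5 and 8.11 CPM in KO LPS and 12.8 and 19.3 CPM in WT LPS, against 43.4 and 34.2 CPM in KO and 49.0 and 64.2 CPM in WT steady-state cells. Of 9 pentose phosphate genes 1 (G6pdx) was higher with LPS in KO. Glycogen metabolism had 3 of 8 tested genes higher with LPS in KO (Ugp2, Gbe1 and Gys1) and 0 in WT. Gbe1, the glycogen branching enzyme, had 79.2 and 82.1 CPM in KO LPS and 22.9 and 19.1 CPM in WT LPS, against 13.6 and 12.3 CPM in KO and 11.01 and 11.2 CPM in WT steady-state cells. It rose with LPS in KO by log2 2.63 ± 0.23 (edgeR adjusted p = 0.00297) and was higher in KO LPS than in WT LPS by log2 1.95 ± 0.23 (edgeR adjusted p = 0.0283), a call between genotypes that was lost without each library except the 2 of WT LPS (edgeR adjusted p = 0.0776 to 0.142).

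In the tricarboxylic acid cycle 2 of 16 genes (Aco1 and Suclg2) were lower with LPS in KO, against 6.46% of all genes. In WT 1 (Mdh1) was higher, against 3%. Mdh1, cytosolic malate dehydrogenase, had 135 and 128 CPM in KO LPS and 371 and 351 CPM in WT LPS, against 124 and 136 CPM in KO and 161 and 130 CPM in WT steady-state cells. It was lower in KO than in WT with LPS by log2 -1.46 ± 0.24 (edgeR adjusted p = 0.0496), a call lost without each library except the 2 of WT LPS (edgeR adjusted p = 0.119 to 0.185). Of 12 tested genes for pyruvate entry into mitochondria and 12 of the oxygen sensing machinery none was called in any comparison. Their most abundant members were Dld and Hsp90ab1. Of 26 further HIF-1 targets 5 (Narf, Nampt, Lox, Bhlhe41 and Hmox1) were higher with LPS in KO, against 5.3% of all genes. In WT 3 (Lox, Mxi1 and Hmox1) were higher, against 3%, with 0 lower in either genotype and 0 called between genotypes. Lox, lysyl oxidase, had 398 and 237 CPM in KO LPS and 66.1 and 74.8 CPM in WT LPS, against 0.388 and 2.48 CPM in KO and 2.12 and 2.38 CPM in WT steady-state cells. Of the 17 stress response genes 3 (Ddit3, Trib3 and Asns) were higher with LPS in KO, against 5.3% of all genes. In WT 2 (Trib3 and Asns) were higher, against 3%. Of the calls with LPS in these neighbouring lists, those of Gbe1 and Lox in KO held without each library in turn, and every other was lost without at least 1 of the steady-state libraries of its genotype (the highest edgeR adjusted p was 0.25, for Mxi1).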

How the data were processed

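Per the labels' protocols, an RNeasy plus kit served for RNA extraction and the TruSeq RNA kit v2 for library preparation. The authors deposited a table of whole-number read counts per gene, not normalised, with 1 column for each of 8 libraries. Tools listed in the submitters' processing notes, without settings, are Subread 1.4.3, featureCounts, edgeR 3.6.8 and TopHat2 2.0.8, with the build mm10.

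The main test used edgeR 4.0.16 under R 4.3.3: filterByExpr (minimum count 10, minimum total 15) kept 12442 of 23420 genes, TMM factors scaled library sizes, and the quasi-likelihood F test was fitted with 1 coefficient per group over all 8 libraries. Genes were called at a two-sided Benjamini-Hochberg adjusted p under 0.05 over all genes; SE is the log2 fold change divided by the square root of F. Log2 fold changes rest on 2 libraries per group, and the depth gives low precision to genes of few reads. Libraries of a group correlated at Pearson's r of 0.954 (KO LPS), 0.910 (WT LPS), 0.981 (KO steady state) and 0.972 (WT steady state) over genes and differed by more than sampling noise.

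All members are named, by role. In other lists the called genes are named, or else the most abundant one. The members and the lists were chosen with earlier results of these data known, and no set test or p over a list is given. Transcript lengths and shared 50-base stretches come from GENCODE M21, promoter windows and coordinates from RefSeq GRCm38.p6. Alternatives were RLE or no scaling factors, robust dispersion, DESeq2 1.42.0, no filter or one at 1 CPM in 2 libraries, the groups compared alone, the replicate number as a block, and each library left out in turn.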

Additional observations from a re-analysis of the deposited data

Results flagged for a closer look

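Gapdh was singled out because its KO and WT libraries moved in opposite directions with LPS and at steady state. The KO LPS libraries had 3.39 and 5.36 CPM, above 2.12 and 2.17 CPM in WT LPS, and the KO steady-state libraries had 1.55 and 0.974 CPM, below 2.22 and 1.86 CPM in WT steady state. The log2 difference of the differences was 1.700 (edgeR adjusted p = 0.762 for the interaction), on at most 35 reads per library and with most of its sequence shared with pseudogenes.

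Ndrg1 was singled out because every KO LPS library lay below every KO steady-state library while every WT LPS library lay above every WT steady-state library. Its log2 difference of the responses, KO minus WT, was -1.487 (edgeR adjusted p = 0.588 for the interaction), with 101 and 90.3 CPM in KO LPS against 104 and 103 CPM in KO steady state, and 467 and 404 CPM in WT LPS against 129 and 208 CPM in WT steady state. Neither interaction, that of Gapdh or that of Ndrg1, passed the test over all genes. The separate Ndrg1 calls, with LPS in WT and between genotypes with LPS, are given above.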

How the results depend on the processing

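No sign was reversed for the 25 called folds of members under 402 alternatives (154 calls lost) or for the 53 folds with an unadjusted p under 0.05 that were not called under 844 (83 calls gained). DESeq2 called 8 members for KO against WT with LPS, 6 averaged, 24 for LPS in KO and 15 for LPS in WT. Without a filter on low counts 3 were called for the average, beside 315 of all genes, against 26 genes with the filter. LPS in WT called 5 without scaling factors and 5 with robust dispersion, beside 668 and 749 of all genes, against 807 in the main fit. A fit to the groups compared alone called 0 for KO against WT with LPS (0 of all genes) and 0 for LPS in WT (229 genes). It called 21 for LPS in KO (2316 genes, against 1463). The causes were not tested.

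Without scaling factors the median over all genes moved to -0.11 for KO against WT with LPS, -0.27 for LPS in KO, -0.13 for LPS in WT and -0.13 for the difference of responses, while the members' median stayed 0.67, 1.55, 1.11 and 0.42 above it. The split of calls over all genes for the average was then 5 higher and 2 lower, against 11 and 15 with TMM.

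Same-numbered libraries correlated in their deviations at -0.599 between KO LPS and WT LPS and at -0.155 to 0.260 between the other pairs of groups. These correlations cannot tell whether libraries of different groups share a batch or are paired, under these or crossed numbers. With the number as a block 0 members were called for KO against WT with LPS, 9 for LPS in KO and 2 for LPS in WT. Over all genes the calls were 8, 776 and 465, against 96, 1463 and 807 without the block. Crossing the KO LPS numbers in the block, an alternative added after the data were seen, gave 2 members and 273 genes called for KO against WT with LPS.

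With 1 library left out, the counts ranged from 0 to 9 for KO against WT with LPS, 0 to 8 for the average, 1 to 23 for LPS in KO and 0 to 19 for LPS in WT. The median log2 fold change of the members ranged from 0.46 to 1.26 for KO against WT with LPS, from 0.35 to 0.76 for the average, from 0.61 to 1.25 for LPS in WT and from 0.043 to 0.96 for the difference of responses. A left-out library leaves its group with 1, assumed to vary like the other groups.

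With the median transcript length Hk2 shares were 29.2% in KO LPS, 19.3% in WT LPS, 15.4% in KO steady state and 9.71% in WT steady state, and Pfkl shares were 72.4%, 42.2%, 44.3% and 46.9% in the same groups. With 1 library left out the Hk2 share ranged from 31.2% to 38.5%, 22.2% to 23.0%, 17.6% to 19.0% and 10.9% to 13.7% in these groups, and the Pfkl share from 75.0% to 78.5%, 48.8% to 51.8%, 48.4% to 55.2% and 51.7% to 57.8%. Depth limits Gapdh and Eno1, at 8 to 35 reads per library.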
